A study of Rattus norvegicus with 9 samples.

Results

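The levels of transcripts in the tibialis anterior muscle (TIB), a mostly fast-twitch muscle of the lower leg, were compared between 3 rats in phase 2 of fasting (P2) and 3 rats in the fed state. These 6 arrays are the ones labelled with these nutritional states among the 9 arrays of the series. All rats were untreated males of the Sprague Dawley strain, bought at the same age, housed singly and given water throughout. Fed rats were killed with a full stomach, and P2 rats had received no food since the start of the fast and were in the phase in which daily weighing shows a slow, regular loss of body mass. RNA of 1 muscle per rat was hybridised to 1 Affymetrix Rat Gene 1.0 ST array, so each array stands for a different animal. Arrays are named Fed 1 to Fed 3 and P2 1 to P2 3, and triplets of values follow this order. Values are log2 signals after robust multi-array averaging (RMA), a procedure that normalises the arrays against each other and summarises the probes of each probe set. A log2 fold change is the P2 mean minus the fed mean, with 3 rats per group, given ± its standard error. That error comes from a limma fit, which estimates the spread from all 9 arrays and moderates it across probe sets. It is therefore not the scatter of the 6 values printed beside it. The adjusted p comes from the same fit with Benjamini-Hochberg adjustment over 29215 probe sets. A transcript is said to rise or fall only where the adjusted p was under 0.05. Unless an array is named, the call of a gene given with its own value held with each of the 6 arrays left out in turn. Counts of called genes in a group use all arrays and were less stable. Counts with an array left out are given where they changed by more than 1.5 times or where calls appeared or vanished. Smaller shifts of counts are mostly left out.

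When food is withheld for long, muscle first uses up glycogen and then lives mainly on fatty acids that adipose tissue and its own lipid droplets release, while glucose is kept for the brain. Fatty acids enter the cell through carriers, are activated to acyl-CoA, and pass into mitochondria through the carnitine shuttle for beta-oxidation, whereas pyruvate dehydrogenase, the gate through which glucose carbon enters the same mitochondria, is shut by its kinases. Falling insulin releases the FOXO transcription factors and rising glucocorticoids engage their receptor, and both are known to induce genes of protein breakdown, which in P2 is held at a low rate in the whole body.

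Tissue identity was checked first. Acta1, the skeletal muscle actin, had log2 signals of 13.98, 13.96 and 13.97 in the fed rats and 13.98, 13.91 and 13.93 in P2. Ckm, the muscle creatine kinase, had 13.57, 13.56 and 13.57 against 13.61, 13.53 and 13.54, and Myh4, the fast IIB myosin, 13.64, 13.65 and 13.61 against 13.67, 13.60 and 13.70. These markers of fast muscle fibres overlapped between the groups. Of 14 measured fibre markers 2 were lower, a count that became 1 without Fed 1, Fed 2 or P2 1 and 0 without Fed 3 or P2 3. Their summed level lay between 17.01 and 17.03 in fed rats and between 16.90 and 16.94 in P2.

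Over all 29215 probe sets, 1500 were higher in P2 (5.13%) and 1211 were lower (4.15%), which makes 2711 in all (9.28%). When Fed 2, Fed 3 or P2 3 was left out, 843, 978 or 918 probe sets were higher and 730, 733 or 709 lower. Reduced to 1 probe set per gene, 1026 of 14506 genes were higher (7.07%) and 808 lower (5.57%), and these shares are the background against which the gene groups below are to be read. The fed and P2 arrays did not overlap in any of the 2711 called probe sets, as was the case for 24.2% of all probe sets. Most changes were modest. A difference of at least 2-fold was found for 239 of the higher and 224 of the lower probe sets, and one of at least 4-fold for 25 and 15. Calls were rare among dim probe sets. Of the 7304 probe sets with the lowest mean signal 0.534% were higher and 0.246% lower, against 11.9% and 9.71% of the 7304 with the highest. For groups made up of bright transcripts the shares over all genes are therefore a low background.

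The largest increase belonged to Pdk4, the kinase that inactivates pyruvate dehydrogenase. Its log2 signals were 9.74, 10.19 and 10.54 in the fed rats and 13.08, 13.31 and 13.25 in P2, a log2 fold change of 3.06 ± 0.18 (8.33-fold, adjusted p = 7.35e-05). The P2 rats lay close together and far above every fed rat. Cep85l, a centrosomal protein, went from 8.93, 8.83 and 8.71 to 10.97, 11.28 and 10.87 (2.21 ± 0.17). Cyp2e1, a cytochrome P450 known from the fasting liver, went from 4.96, 5.35 and 5.13 to 6.53, 8.06 and 7.09 (2.08 ± 0.34, adjusted p = 0.00657), with a wide spread among the P2 rats. Fmo2, a flavin-containing monooxygenase, rose from 7.93, 7.39 and 7.62 to 10.02, 10.96 and 10.35.

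Among the decreases, Tfrc, the transferrin receptor that imports iron, fell from 11.59, 11.59 and 11.41 to 7.90, 8.27 and 8.43, which is 10.1-fold lower. Nrep, a small neuronal regeneration-related protein, fell by 2.75 ± 0.20 on the log2 scale, from 10.96, 11.07 and 11.13 to 8.71, 8.22 and 8.0. Map2k6, a kinase that activates p38, had signals of 9.63, 9.63 and 9.43 in fed rats and of 7.38, 7.79 and 7.86 in P2 (-1.89 ± 0.14, adjusted p = 0.000197). The 5 smallest adjusted p-values among decreases included, besides Tfrc and Iqcg, those of Tmtc4, a transmembrane mannosyltransferase (-1.71 ± 0.08), Angptl2, a secreted angiopoietin-like protein (-1.58 ± 0.08), and Lama3, a laminin chain (-1.36 ± 0.08). In each of them the lowest fed rat stood more than 1 log2 unit above the highest P2 rat. Sec14l5, a lipid-transfer protein (-1.89 ± 0.23), and Tceal7, a transcription elongation factor-like protein (-1.89 ± 0.25), also fell.

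**Figure D1:**
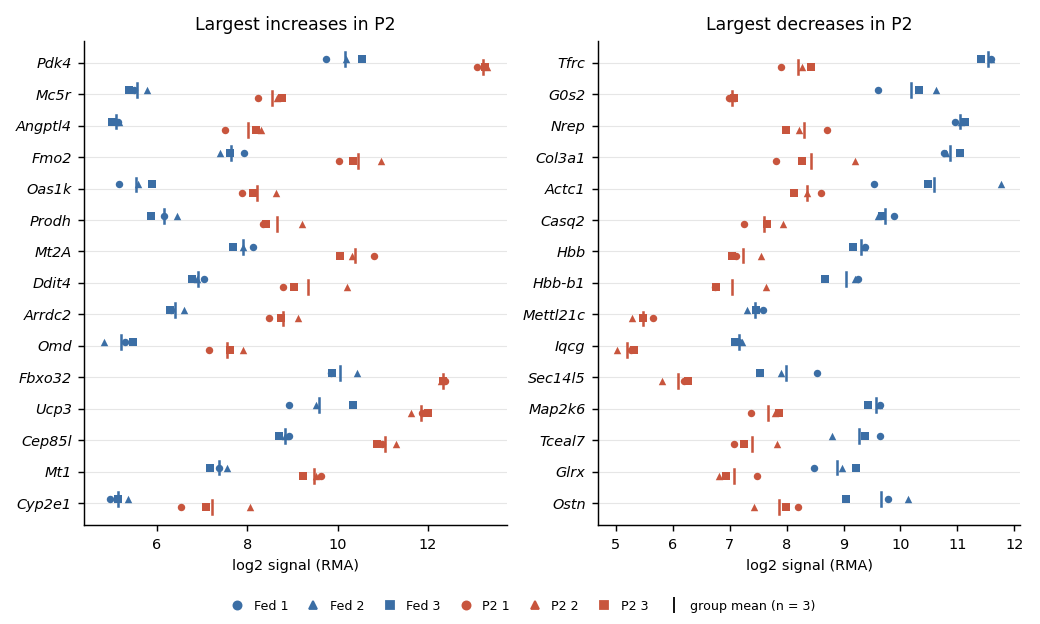
Log2 signal (RMA, x axis) of the 15 genes with the largest increase and the 15 with the largest decrease in P2, 1 point per array, with a bar at each group mean of 3 rats. Genes were chosen among those whose groups do not overlap, and Actc1 and Ucp3 show the widest fed groups.

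Fatty acid handling. Of 19 measured genes of fatty acid uptake and activation, 4 were higher and 3 lower, with a median log2 fold change of 0.11, against 0.0051 over all genes. The largest change among them was the increase of Angptl4, an angiopoietin-like protein (2.90). It is counted in this group although it is known to inhibit lipoprotein lipase and so to restrain uptake. Acsl4, an acyl-CoA synthetase with a preference for polyunsaturated fatty acids, had signals of 8.09, 7.86 and 7.94 in fed rats and of 9.37, 9.49 and 9.51 in P2 (1.49 ± 0.08, adjusted p = 7.35e-05). Acsl6, another synthetase of the family, moved the other way, from 9.67, 9.77 and 9.75 to 8.35, 8.42 and 8.45 (-1.33 ± 0.08). Acsl1, the main synthetase of muscle, had a log2 fold change of 0.06 ± 0.19 and was not called. The 3 isoforms thus gave 3 different outcomes. Cd36, the fatty acid translocase of the plasma membrane, rose from 10.94, 11.01 and 10.89 to 11.51, 12.18 and 11.87 (0.91 ± 0.14). Fabp3, the muscle fatty acid-binding protein (-0.25 ± 0.20), and Lpl, the lipoprotein lipase (0.11 ± 0.28), were not called, and in both P2 2 had the highest signal of all 6 rats. Without Fed 2 only 1 of the 3 lower calls of this group was left.

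Of 25 genes of mitochondrial beta-oxidation, 7 were higher and none lower (median 0.20). With 1 array left out, 5 to 7 were higher. Cpt1a, the carnitine palmitoyltransferase of the outer membrane, rose from 6.17, 5.98 and 6.54 to 6.97, 7.54 and 7.44 (1.08 ± 0.18, adjusted p = 0.00714). Mlycd, which degrades malonyl-CoA, the inhibitor of that transferase, rose from 7.33, 7.63 and 7.66 to 8.67, 8.40 and 8.35 (0.94 ± 0.16). Other steps of the pathway differed in their calls. Decr1, the auxiliary reductase for unsaturated fatty acids, rose by 0.91 ± 0.16 and Acadl, the long-chain acyl-CoA dehydrogenase, by 0.65 ± 0.07, while Acadvl (-0.10 ± 0.14), Acadm (-0.15 ± 0.12), Hadha (0.26 ± 0.11), Hadhb (0.30 ± 0.10) and Cpt2 (0.24 ± 0.16) were not called. In peroxisomes, 2 of 11 genes were higher and 2 lower. Ehhadh, the bifunctional enzyme of peroxisomal beta-oxidation, rose from 7.38, 7.41 and 7.15 to 8.68, 9.41 and 8.69 (1.61 ± 0.18), and Crot, which hands shortened acyl groups to carnitine, from 8.29, 8.30 and 8.30 to 9.59, 9.59 and 9.84 (1.38 ± 0.08). Abcd2, a peroxisomal importer of fatty acyl-CoA, fell by 1.17 ± 0.16 on the log2 scale, whereas the call of Phyh (-0.38 ± 0.08) was lost without Fed 2, Fed 3 or P2 3, which leaves 1 lower gene.

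The droplet itself showed opposite moves of the lipase and its inhibitor. Pnpla2, the adipose triglyceride lipase ATGL, rose from 9.74, 9.77 and 9.74 to 11.45, 11.72 and 11.13 (1.68 ± 0.13, 3.21-fold), and Lipe, the hormone-sensitive lipase, from 7.75, 7.55 and 7.74 to 8.63, 8.76 and 8.59 (0.98 ± 0.09). G0s2, the peptide that inhibits ATGL, had signals of 9.61, 10.62 and 10.33 in fed rats and of 6.99, 7.05 and 7.08 in P2 (-3.15 ± 0.22). Its P2 values spanned less than 0.1 log2 units while the fed values spanned about 1. Abhd5, the protein that activates ATGL (0.05 ± 0.09), and Mgll, the last lipase of the chain (-0.03 ± 0.12), were not called. Dgat2, which makes triglycerides, also rose (1.29 ± 0.19). In all, 5 of 17 genes of this group were higher and 2 lower (median 0.07), but without Fed 1, Fed 2 or Fed 3 there were 3 higher genes, and without Fed 2, Fed 3 or P2 3 there was 1 lower one. The coat proteins Plin2 (-0.26 ± 0.18) and Plin5 (0.49 ± 0.23) were not called.

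Among regulators of lipid use, 3 of 18 were higher and 3 lower (median 0.17). Pdk4, given above, is one of the higher ones and is counted again with pyruvate dehydrogenase below. Ucp3, the muscle uncoupling protein, rose from 8.92, 9.51 and 10.35 to 11.87, 11.63 and 12.01 (2.24 ± 0.38), and the fed rats differed among themselves by over 1 log2 unit. The nuclear receptors known to drive these genes were not called higher. Ppard had a log2 fold change of -0.01 ± 0.09 and Ppara one of -0.48 ± 0.15 (adjusted p = 0.10), which became a lower call without P2 2 (adjusted p = 0.0333). Ppargc1b, a coactivator of mitochondrial genes, fell from 8.76, 8.92 and 8.76 to 7.48, 7.67 and 7.64 (-1.22 ± 0.10, adjusted p = 0.000224). Its relative Ppargc1a was at -0.39 ± 0.14 and was not called (adjusted p = 0.130), and Rxrg, a retinoid X receptor of muscle, fell by 0.65 ± 0.12 on the log2 scale. Ketone use showed no call in 7 genes, and all 7 had a negative log2 fold change (median -0.24). Without P2 2, 1 of these genes was called lower. Of 16 genes of fatty acid synthesis none was higher and 3 were lower (median -0.38). The largest decrease was that of Scd, the stearoyl-CoA desaturase (-1.12 ± 0.22, adjusted p = 0.0133), but without Fed 1 none of the 3 calls was left, and without P2 3 there was 1.

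Pyruvate and glucose use. Of 14 genes of the pyruvate dehydrogenase complex, its control and pyruvate import, 7 were lower and 2 higher (median -0.53). With 1 array left out, 5 to 7 were lower. Mpc1 and Mpc2, the subunits of the mitochondrial pyruvate carrier, both fell. Mpc1 had signals of 9.43, 9.52 and 9.55 in fed rats and of 8.74, 8.55 and 8.74 in P2 (-0.83 ± 0.10), and Mpc2 had 10.37, 10.31 and 10.42 against 9.71, 9.65 and 9.48 (-0.75 ± 0.09). Subunits of the complex fell as well, with Dlat, its transacetylase, going from 11.16, 11.24 and 11.10 to 10.24, 10.37 and 10.22 (-0.89 ± 0.10), and with Pdhx at -0.73 ± 0.10 and Pdhb at -0.58 ± 0.07. The second kinase called higher, Pdk2 (0.46 ± 0.11), lost its call when Fed 1, Fed 2, Fed 3, P2 1 or P2 3 was left out, which leaves Pdk4 as the 1 higher gene.

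Of 27 glycolytic genes none was higher and 5 were lower (median -0.12), and without Fed 3 or P2 3 the number of lower ones was 3. Eno1, an enolase, fell from 11.09, 11.41 and 11.27 to 10.30, 10.35 and 10.23 (-0.96 ± 0.11), Gpd1, which turns a glycolytic intermediate into the backbone of triglycerides, from 12.09, 12.05 and 12.16 to 11.19, 11.15 and 11.35 (-0.87 ± 0.11), and Pgk1, a phosphoglycerate kinase, by 0.59 ± 0.10 on the log2 scale. Pfkm (0.10 ± 0.06), Ldha (-0.13 ± 0.06), Gapdh (0.00 ± 0.06), Hk2 (-0.44 ± 0.19) and the insulin-responsive glucose transporter Slc2a4 (0.15 ± 0.11) were not called. A second probe set of Ldha was lower (-0.46 ± 0.11, adjusted p = 0.0337), a call that was lost with any array but P2 1 left out. Of 15 genes of glycogen metabolism, Stbd1, which tethers glycogen to membranes (-1.29 ± 0.15), and Phkg1, the catalytic subunit of phosphorylase kinase (-0.69 ± 0.12), were lower and none was higher, while the phosphorylase Pygm was at 0.06 ± 0.06.

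Oxidative phosphorylation. The nuclear-encoded subunits of the respiratory chain moved downwards as a group by small amounts. Of 33 subunits of complex I, the NADH dehydrogenase, 25 were lower and 33 had a negative log2 fold change, between -1.02 and -0.12 (median -0.50). Without P2 3 there were 16 lower calls. Ndufb8 fell from 10.04, 10.03 and 9.92 to 9.14, 9.02 and 8.79 (-1.02 ± 0.10, adjusted p = 0.000476), Ndufs5 by 0.94 ± 0.10 and Ndufs8, which carries iron-sulfur clusters, by 0.85 ± 0.08 on the log2 scale. For complexes III to V, 15 of 34 subunits were lower (11 to 15 with 1 array left out), none was higher and 34 had a negative log2 fold change (median -0.32). Cox5b of cytochrome oxidase fell by 0.78 ± 0.14, Atp5mc1 of ATP synthase by 0.76 ± 0.12 and Uqcrc1 of complex III by 0.69 ± 0.10 on the log2 scale.

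In the tricarboxylic acid cycle 9 of 15 genes were lower (median -0.35), a count that dropped to 4 when Fed 1 was left out, to 3 for Fed 2, to 5 for Fed 3 and to 3 for P2 3. Mdh1, the cytosolic malate dehydrogenase, fell from 12.18, 12.33 and 12.31 to 11.25, 11.67 and 11.31 (-0.86 ± 0.12), the largest decrease of the list. It is counted here although the cycle runs in mitochondria, where Mdh2 is the malate dehydrogenase. Sdhc and Sdhd, the membrane anchors of succinate dehydrogenase, fell by 0.66 ± 0.10 and 0.59 ± 0.07 on the log2 scale. Cs, citrate synthase, which is commonly read as a measure of mitochondrial content, was at -0.26 ± 0.08 and was not called (adjusted p = 0.0755). Of 72 proteins of the mitochondrial ribosome, 20 were lower and 1 was higher (median -0.23). Mrpl40 fell from 9.14, 9.11 and 9.10 to 8.23, 7.99 and 8.25 (-0.96 ± 0.08) and Mrpl48 by 0.88 ± 0.07 on the log2 scale. Leaving out Fed 1 or P2 3 gave 13 lower genes, leaving out Fed 2 or P2 2 gave 12, and the single higher call was lost without Fed 1, Fed 2, Fed 3 or P2 3.

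**Figure D2:**
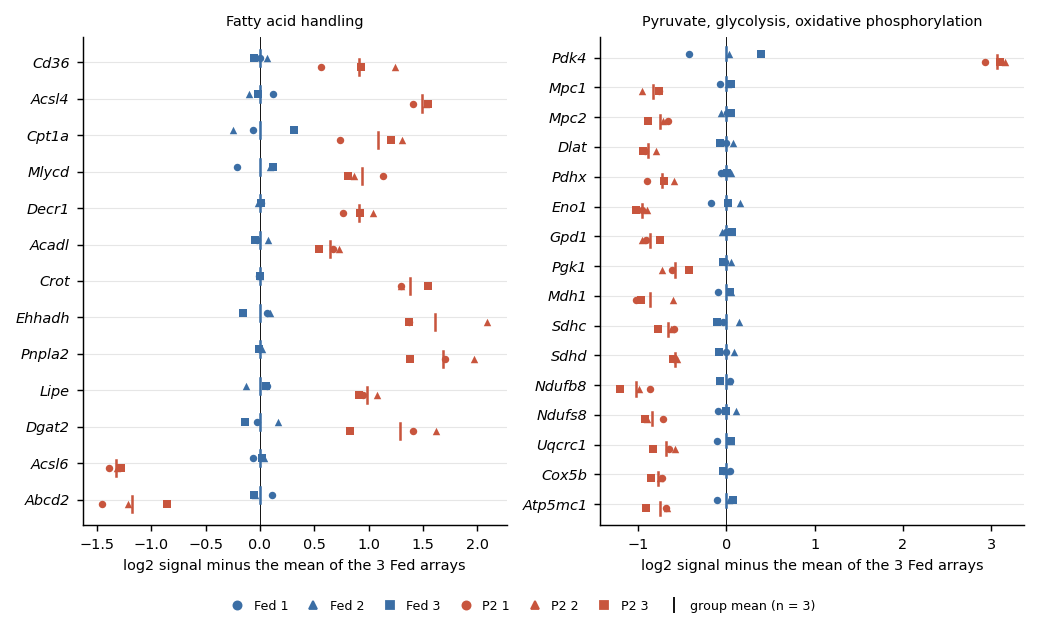
Log2 signal of genes of fatty acid handling (left) and of pyruvate use, glycolysis and oxidative phosphorylation (right), each with the mean of its 3 fed arrays subtracted (x axis, log2 units), 1 point per array and a bar per group mean. On the left all genes but Acsl6 and Abcd2 lie to the right of 0 in P2, and on the right Pdk4 does so alone, at 3.06, while the group means of the others lie below 0, down to about -1.

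Protein breakdown. The best known atrophy ligases rose. Fbxo32, which encodes atrogin-1, had signals of 9.84, 10.43 and 9.88 in fed rats and of 12.37, 12.28 and 12.33 in P2 (2.28 ± 0.14, 4.84-fold, adjusted p = 7.92e-05), and Trim63, which encodes MuRF1, had 10.81, 11.01 and 10.70 against 12.16, 12.60 and 12.25 (1.49 ± 0.13, 2.82-fold). Cblb, which targets insulin receptor substrates, rose from 7.95, 8.26 and 8.2 to 9.01, 9.46 and 9.13 (1.07 ± 0.14), and Fbxo31 (0.96 ± 0.17), Zfand5, a zinc finger protein that stimulates the proteasome (0.81 ± 0.08), and Siah1 (0.69 ± 0.07) rose too. Altogether 8 of 24 ligases and partners were higher (6 to 9 with 1 array left out) and 1 was lower (median 0.22). The lower one, Trim55, a relative of MuRF1 (-0.63 ± 0.17, adjusted p = 0.0485), lost its call with any of the 6 arrays left out, after which no gene of this group was lower except, without P2 2, Trim32 (adjusted p = 0.0291). Of 36 proteasome subunits and partners 19 were higher and none lower (median 0.36), with the lid subunit Psmd11 at 0.82 ± 0.10 and the activator Psme4 at 0.84 ± 0.11. The number of higher ones was 11 without Fed 2 and 12 without Fed 3, and 1 was lower without P2 1.

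In autophagy, 11 of 31 genes were higher and none lower (median 0.24), while 7 were higher without Fed 3 and 1 was lower without P2 1. Gabarapl1, which is conjugated to the membrane of the autophagosome, rose from 7.88, 7.81 and 7.81 to 9.80, 9.55 and 9.44 (1.76 ± 0.11, 3.40-fold). Ulk1, the kinase that starts the process (1.03 ± 0.11), Sqstm1, the cargo receptor p62 (0.96 ± 0.08), Map1lc3b (0.87 ± 0.08) and Bnip3, a mitophagy receptor (0.58 ± 0.08), rose by less. Map1lc3a (0.29 ± 0.14) and Becn1 (-0.26 ± 0.15) were not called. In the lysosome, 5 of 31 genes were higher and 2 lower (median 0.13). Cathepsin L, Ctsl, rose from 9.55, 9.36 and 9.60 to 11.22, 11.26 and 11.08 (1.68 ± 0.09), whereas cathepsins B and D were not called, with Ctsb at -0.24 ± 0.06 and Ctsd at 0.34 ± 0.10. Without Fed 2 or P2 3 there were 3 higher calls, and without Fed 1, Fed 2 or Fed 3 no lower one, with 1 left without P2 3. Among 12 calpains, caspases and their regulators, Capn2, the catalytic subunit of m-calpain (0.71 ± 0.09), and Bcl2l1, which encodes the survival protein Bcl-xL (1.22 ± 0.23), rose. Capn1 (-0.36 ± 0.08) lost its lower call without Fed 2, P2 2 or P2 3.

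Insulin, FOXO and mTORC1. Of 25 genes of insulin and FOXO signalling 6 were higher and 8 lower (median -0.10). Foxo1 had signals of 7.73, 8.02 and 7.92 in fed rats and of 9.32, 9.93 and 9.61 in P2 (1.73 ± 0.15, 3.31-fold), and Foxo3 had 7.41, 7.40 and 7.38 against 8.48, 9.01 and 8.71 (1.34 ± 0.12, 2.52-fold). Both transcription factors are normally held inactive by insulin. The receptors rose, with Igf1r at 0.86 ± 0.11 and Insr at 0.75 ± 0.09, and so did Pik3r1, the regulatory subunit of the kinase that they recruit (1.34 ± 0.15). Igf1, the growth factor itself, went from 10.10, 9.80 and 10.35 to 8.82, 9.11 and 9.09 (-1.08 ± 0.22, adjusted p = 0.0165), and its call was lost without Fed 1 (adjusted p = 0.0556) or Fed 3 (adjusted p = 0.0644). Sestrins, which restrain mTORC1, split. Sesn1 rose from 8.64, 8.42 and 8.41 to 9.39, 9.97 and 9.69 (1.19 ± 0.14), and Sesn3 fell from 8.90, 8.94 and 8.95 to 7.48, 7.5 and 7.5 (-1.44 ± 0.15). Leaving out Fed 1 or Fed 3 gave 4 lower genes in this group, and leaving out Fed 2 gave 5.

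Of 23 genes of the mTORC1 pathway 3 were higher and 1 lower (median 0.10). Ddit4, which represses mTORC1, rose from 7.04, 6.88 and 6.79 to 8.80, 10.21 and 9.02 (2.44 ± 0.31, adjusted p = 0.00189), with P2 2 standing more than 1 log2 unit above the other P2 rats. Eif4ebp1, which binds the cap-binding factor and thereby blocks initiation, rose from 8.31, 8.34 and 8.2 to 10.10, 9.76 and 9.76 (1.59 ± 0.10, 3.01-fold). Mtor was at 0.18 ± 0.09 and was not called. The call of Rps6kb1, the S6 kinase (-0.43 ± 0.10), was lost without Fed 2, Fed 3, P2 1 or P2 2, and no gene of this group was lower without Fed 2, Fed 3 or P2 2. In AMPK and sirtuin genes, 1 of 18 measured genes was lower and none higher (median -0.13). Sirt1, Nmrk1 and Nmrk2 were listed but are not among the measured genes. The counts therefore do not show whether Sirt1 changed. Prkaa2, the main catalytic subunit of AMPK in muscle, was at -0.24 ± 0.12. The lower gene, Nmnat3, which makes NAD in mitochondria (-0.54 ± 0.11), was not called without Fed 2, Fed 3, P2 2 or P2 3, and without P2 1 there were 4 lower genes and 1 higher one.

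Glucocorticoid and clock genes. The list of known glucocorticoid targets had the highest median of all lists at 1.21. In it 18 of 24 genes were higher (16 to 17 with 1 array left out) and none lower. The lists were chosen with earlier results of these data known, so ranks among lists only describe the lists as chosen. Klf15, a transcription factor that induces amino acid breakdown, rose from 6.11, 6.09 and 6.61 to 7.86, 8.29 and 8.02 (1.79 ± 0.18, 3.45-fold). Mt2A, a metallothionein, rose from 8.14, 7.91 and 7.69 to 10.79, 10.31 and 10.05 (2.47 ± 0.18). Fkbp5, a chaperone of the receptor, went from 7.53, 5.99 and 7.78 to 9.66, 8.58 and 9.00 (1.98 ± 0.45, adjusted p = 0.0273), with Fed 2 and P2 2 low in their groups, and its call was lost without P2 1 (adjusted p = 0.0635) or P2 3 (adjusted p = 0.0792). The receptor itself, Nr3c1, had signals of 10.46, 10.42 and 10.40 against 9.53, 10.40 and 10.40, so that P2 1 stood apart from the other 5 rats, and it was not called (-0.32 ± 0.20). Sgk1, another known target, was not called either (-0.19 ± 0.24). Of 15 clock genes 4 were higher and 2 lower (median 0.05). Per1, which belongs to both lists, rose from 7.25, 7.04 and 6.65 to 8.87, 8.98 and 8.46 (1.79 ± 0.21) and Per2 from 6.33, 6.54 and 6.68 to 7.83, 7.83 and 7.45 (1.18 ± 0.12). Npas2, which pairs with Bmal1, fell by 1.06 ± 0.17 on the log2 scale. Bmal1 (-0.06 ± 0.24), Clock (-0.34 ± 0.12), Dbp (-0.22 ± 0.27) and Nr1d1 (-0.54 ± 0.29) were not called. The second lower gene, Bhlhe41, was not called without Fed 1, Fed 2, P2 2 or P2 3.

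**Figure D3:**
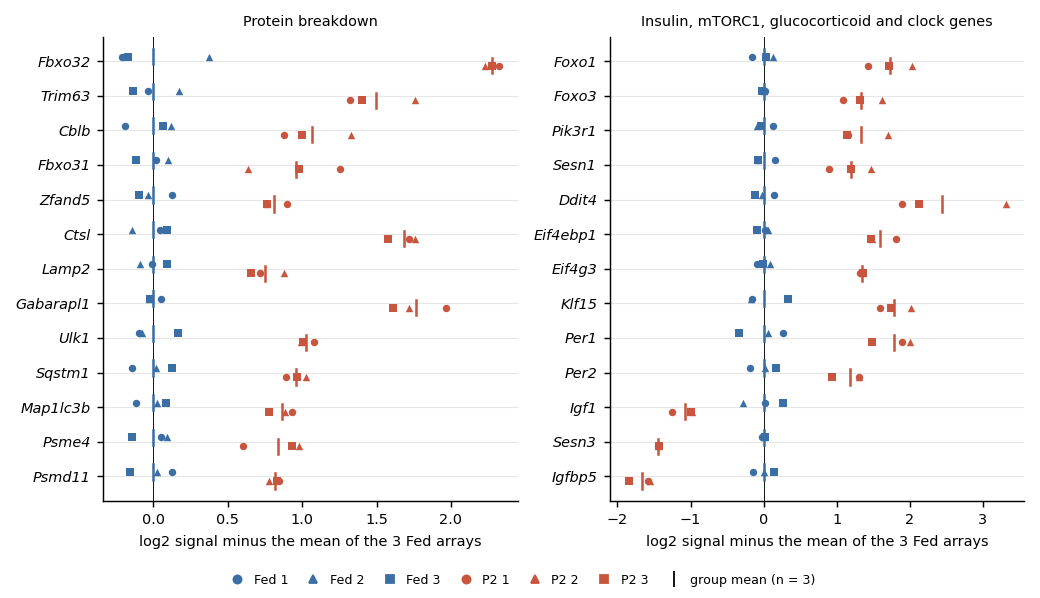
Log2 signal of genes of protein breakdown (left) and of insulin, mTORC1, glucocorticoid and clock genes (right), each with the mean of its 3 fed arrays subtracted (x axis, log2 units), 1 point per array and a bar per group mean. All genes on the left lie above 0 in P2, up to 2.28 for Fbxo32, and on the right Igf1, Sesn3 and Igfbp5 lie below 0.

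Promoter sequences were read for short words known to be bound by FOXO factors, E-box factors, estrogen-related receptors, NRF1 and activators of antioxidant genes. No word of the glucocorticoid receptor was searched. The windows are the 250 bases before each gene's start, from RefSeq on GRCr8, and 11968 of the 14506 genes had at least 1 window. Both strands were searched, and no word contains another. The FOXO word GTAAACA was found in 2.72% of these genes, in 37 of 859 higher genes (4.31%) and in 10 of 664 lower genes (1.51%). The E-box CACGTG, which clock and MYC-type factors bind, was found in 7.07%, 9.55% and 6.48%. The word TCAAGGTCA of the estrogen-related receptors was found in 0.226%, in none of the higher and in 5 of the lower genes (0.753%), the antioxidant word TGACNNNGC in 12.1%, 15.7% and 13.1%, and the NRF1 word GCGCATGCG in 2.30%, 2.33% and 3.61%. Over all 33469 windows of the table the shares were 3.21% for GTAAACA, 5.59% for CACGTG, 0.388% for TCAAGGTCA, 10.1% for TGACNNNGC and 1.35% for GCGCATGCG. No test was run, and a match is a description of the letters. The windows of 3 genes that rose are shown, read 5′ to 3′ on the plus strand, with the word in capitals. Trim63, with the FOXO word read on the opposite strand 205 to 199 bases before the start, is chr5:151816986-151817235. Klf15, with an E-box 101 to 96 bases before the start, is chr4:124522765-124523014. Slc43a1, a transporter described next, with an E-box 91 to 86 bases before the start, is chr3:90327072-90327321.
Trim63: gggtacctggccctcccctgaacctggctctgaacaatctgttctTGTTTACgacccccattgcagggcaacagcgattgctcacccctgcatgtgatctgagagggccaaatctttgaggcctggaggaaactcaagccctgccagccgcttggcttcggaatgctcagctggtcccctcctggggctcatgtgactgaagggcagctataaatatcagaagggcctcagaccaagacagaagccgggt
Klf15: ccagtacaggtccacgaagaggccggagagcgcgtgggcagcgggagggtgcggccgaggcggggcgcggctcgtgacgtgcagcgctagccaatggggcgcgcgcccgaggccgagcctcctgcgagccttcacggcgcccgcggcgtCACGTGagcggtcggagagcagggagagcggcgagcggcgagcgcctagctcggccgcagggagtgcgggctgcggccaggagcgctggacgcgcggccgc
Slc43a1: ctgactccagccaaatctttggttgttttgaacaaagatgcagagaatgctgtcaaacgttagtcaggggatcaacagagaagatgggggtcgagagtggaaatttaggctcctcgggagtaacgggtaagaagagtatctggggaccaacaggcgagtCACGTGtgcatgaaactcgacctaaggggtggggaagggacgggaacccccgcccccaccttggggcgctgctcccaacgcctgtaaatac

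Amino acids. Of 24 transporters 6 were higher and 3 lower (median 0.08), and the 5 largest increases were of similar size. Slc43a1, a carrier of large neutral amino acids, rose from 7.27, 7.36 and 7.17 to 9.07, 9.11 and 8.94 (1.77 ± 0.10, 3.42-fold, adjusted p = 7.35e-05). Slc43a3, of the same family, rose from 6.32, 6.38 and 6.64 to 8.19, 8.88 and 8.34 (2.02 ± 0.22). It is counted among the 24 but is known as a carrier of purine nucleobases, not of amino acids. Their relative Slc43a2 fell by 0.70 ± 0.10 on the log2 scale. Slc7a2, a carrier of cationic amino acids, rose from 8.88, 8.87 and 9.17 to 10.54, 11.06 and 10.79 (1.83 ± 0.14), and Slc7a6 (1.77 ± 0.20) and Slc7a8 (1.73 ± 0.19), light chains of exchangers of the plasma membrane, rose with P2 2 as the highest array in both. Without P2 3 only 1 of the 3 lower calls was left. Of 19 genes of branched-chain amino acid breakdown 3 were higher and none lower (median 0.08). Bcat2, the mitochondrial transaminase of the first step, rose from 8.56, 8.36 and 8.38 to 9.61, 9.51 and 9.28 (1.03 ± 0.10), and Dbt, a subunit of the dehydrogenase of the second step, by 0.88 ± 0.16. The kinase that inactivates this dehydrogenase, Bckdk, was at -0.15 ± 0.11. Leaving out Fed 2 or P2 2 added 1 lower gene.

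Of 23 genes of glutamine, alanine, proline and polyamine metabolism 4 were higher and 5 lower (median -0.02). Prodh, which starts the oxidation of proline, rose from 6.16, 6.44 and 5.88 to 8.36, 9.21 and 8.42 (2.50 ± 0.32), while Aldh18a1, which makes proline from glutamate, fell by 0.53 ± 0.10 on the log2 scale. In polyamine metabolism the synthetic enzymes Odc1, the ornithine decarboxylase (-0.87 ± 0.09), and Amd1, the adenosylmethionine decarboxylase (-0.75 ± 0.13), fell and the catabolic enzymes Sat1, the spermidine acetyltransferase (0.90 ± 0.09), and Smox, the spermine oxidase (0.73 ± 0.11), rose. Gpt, an alanine transaminase, fell by 0.92 ± 0.16 and Gpt2, its mitochondrial counterpart, was at -0.63 ± 0.20 and was called only without P2 1 (adjusted p = 0.0435).

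Protein synthesis and growth. Few transcripts of ribosomal proteins were called. Of 66 cytosolic ones Rpl3 was higher (0.75 ± 0.12) and none lower (median 0.14). Without P2 2 a second one was higher, and without P2 1 there was 1 lower. Of 41 initiation and elongation factors 7 were higher and none lower (median 0.11). Eif4g3, a scaffold of the cap-binding complex, rose from 9.88, 10.07 and 9.97 to 11.29, 11.34 and 11.34 (1.35 ± 0.07, 2.54-fold), well above the next largest change, that of Eif2b3 (0.57 ± 0.08). Without Fed 2 or Fed 3 there were 4 higher factors, and without P2 3 there was 1 lower one. Myostatin, Mstn, had signals of 9.19, 8.94 and 9.00 against 10.40, 9.13 and 9.83 and was not called (0.74 ± 0.43, adjusted p = 0.365, or 0.214 without P2 2), and P2 2 lay among the fed rats. Of 32 genes of myostatin, activin and BMP signalling 4 were higher and 4 lower (median 0.03). Tgfbr3, a co-receptor, rose by 1.25 ± 0.14 and Smad3, a signal transducer of the pathway, fell by 0.60 ± 0.10 on the log2 scale. Most other calls of this group depended on single arrays, as 1 higher gene was left without Fed 1 and 2 were left without Fed 3 or P2 2, and 1 lower gene was left without P2 1 and 2 without Fed 1, Fed 2, Fed 3, P2 2 or P2 3.

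Of 22 myogenic and satellite cell genes 3 were higher and 1 lower (median -0.07). Myf6, the myogenic factor of mature fibres, rose from 10.74, 11.04 and 11.07 to 11.49, 11.88 and 11.82 (0.78 ± 0.14), as did Hdac4, a deacetylase known to respond to denervation (0.77 ± 0.09), while Myod1 (-0.09 ± 0.32) and Myog (0.29 ± 0.32) were not called. Of 25 cell cycle genes 4 were lower and 1 higher (median -0.19). Top2a, a topoisomerase of dividing cells, went from 5.64, 5.77 and 5.28 to 4.65, 4.79 and 4.76 (-0.83 ± 0.12), and Mcm7, a subunit of the replicative helicase, rose by 0.80 ± 0.13. Without Fed 2, P2 1 or P2 3 there were 2 lower genes.

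Contractile apparatus. Of 37 sarcomere genes 6 were lower and none higher (median -0.11), and without Fed 3 or P2 3 the number was 3. Acta1 and Myh4, given above, were not called. Apart from Mybph, the called genes named here are isoforms of developing, cardiac and slow muscle. Mybph, a myosin-binding protein, fell from 10.98, 10.97 and 11.64 to 10.07, 8.89 and 9.48 (-1.71 ± 0.28), Myh3, the embryonic myosin, from 8.15, 7.89 and 7.98 to 6.51, 6.43 and 6.63 (-1.48 ± 0.09), and Myl2, the slow regulatory light chain, from 9.14, 9.33 and 9.41 to 7.66, 8.46 and 7.38 (-1.46 ± 0.25). Actc1, the cardiac actin, varied more among fed than among P2 rats, with 9.53, 11.77 and 10.49 against 8.60, 8.36 and 8.12 (-2.24 ± 0.48), and was not called without Fed 3, P2 2 or P2 3 (adjusted p = 0.0622, 0.0566 and 0.0773). Among slow and oxidative fibre transcripts P2 2 was the P2 rat nearest to the fed rats. Myh7, the slow myosin, had 10.80, 11.11 and 11.26 against 10.14, 10.52 and 9.88 (-0.88 ± 0.21), and its call was lost without Fed 2, Fed 3, P2 1 or P2 3. Tnni1, the slow troponin I, had 9.53, 9.71 and 10.19 against 8.63, 9.42 and 8.14 (-1.07 ± 0.31, adjusted p = 0.0648, or 0.0127 without P2 2). For Myh2, the IIA myosin, the signals were 12.88, 13.02 and 12.90 against 12.08, 12.86 and 12.14, and the adjusted p was 0.128 with all arrays and 0.0104 without P2 2. The part of fibre type makeup in the difference of P2 2 was not tested.

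In calcium handling, 5 of 23 genes were lower and none higher (median -0.14). Casq2, the slow and cardiac calsequestrin (-2.11 ± 0.20), Trim72, a membrane repair protein (-1.34 ± 0.12), and Jph2, the junctophilin of the triad, fell, the last from 11.65, 11.63 and 11.64 to 10.43, 10.15 and 10.75 (-1.19 ± 0.13). The pump Atp2a1 (0.01 ± 0.06) and the release channel Ryr1 (-0.02 ± 0.11) of the same membranes were not called. Without Fed 1, Fed 3 or P2 3 there were 3 lower genes, and without P2 1 there was 1 higher one. Of 20 genes of the neuromuscular junction and of excitability 5 were lower (median -0.27). Ache, the acetylcholinesterase, fell by 0.80 ± 0.10, Musk, the kinase that organises the junction, by 0.58 ± 0.10 and Chrnb1, an acetylcholine receptor subunit, by 0.46 ± 0.09 on the log2 scale, which are the 3 calls left without Fed 1, Fed 2, Fed 3 or P2 3.

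Matrix and secreted factors. Collagens and their partners had the lowest median of the lists that do not mark a cell type, -0.59, with 11 of 32 genes lower and 2 higher. Col3a1, the type III collagen, went from 10.76, 10.81 and 11.04 to 7.81, 9.20 and 8.26 (-2.44 ± 0.36, adjusted p = 0.00396). Serpinh1, the collagen chaperone HSP47, fell from 10.45, 10.41 and 10.52 to 8.92, 9.19 and 9.00 (-1.42 ± 0.11). Col1a1, the most familiar fibrillar collagen, had 12.47, 12.43 and 12.47 against 10.00, 11.69 and 10.16, so that all P2 rats were below all fed rats, yet P2 2 was 1.5 log2 units above the other P2 rats, and the call failed (-1.84 ± 0.57, adjusted p = 0.0848, or 0.0341 without P2 2). Col5a1 (-1.04 ± 0.12), Col4a1 of basement membranes (-0.98 ± 0.18) and Bgn, biglycan (-0.91 ± 0.15), fell. The 2 higher genes, Omd (2.36 ± 0.24), which encodes osteomodulin, and Prelp (1.17 ± 0.22), are small leucine-rich proteoglycans. Of 21 muscle-secreted factors 2 were higher and 6 lower (median -0.09). Angptl4, also counted among the fatty acid genes above, rose most (2.90). Il15, a cytokine of muscle, rose from 7.93, 8.29 and 8.06 to 9.48, 9.14 and 9.49 (1.27 ± 0.12). Ostn, musclin, fell from 9.78, 10.13 and 9.04 to 8.19, 7.43 and 8.0 (-1.78 ± 0.29), and Fndc5, the precursor of irisin, by 0.84 ± 0.10 on the log2 scale. Il6 (0.07 ± 0.20) and Fgf21 (-0.08 ± 0.09) were not called. Leaving out Fed 1 or Fed 2 gave 3 lower factors, and leaving out Fed 3 gave 2.

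**Figure D4:**
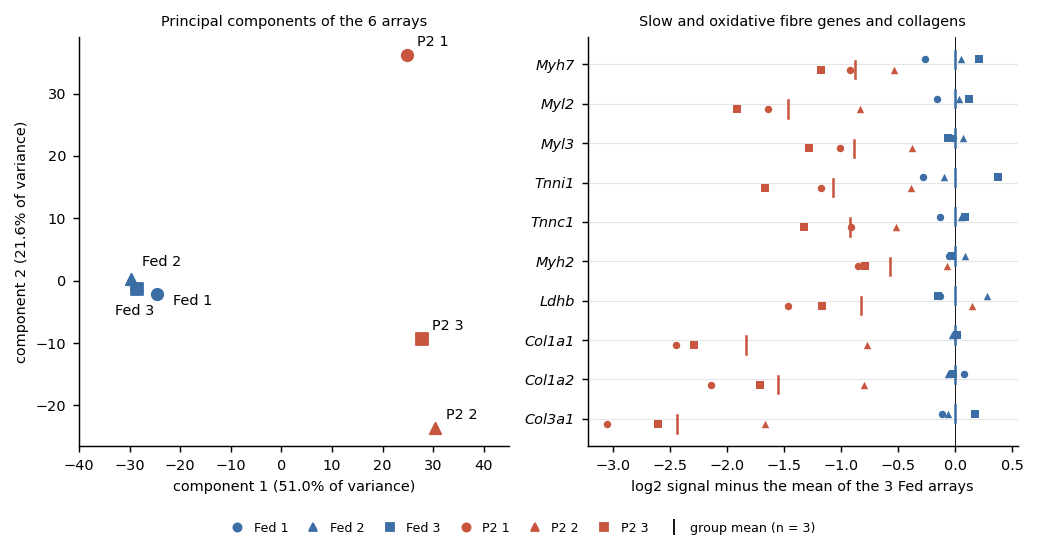
Left, first and second principal component (axes, with the percent of variance) of the 6 arrays over all probe sets, where the fed rats lie together on one side and the P2 rats on the other, with P2 1 apart at 36.1 on the second component. Right, log2 signal of slow and oxidative fibre genes and collagens with the mean of the 3 fed arrays subtracted (x axis, log2 units), with a bar per group mean, where P2 2 is the P2 array nearest to 0 in each gene shown.

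Stress responses. Of 42 antioxidant and glutathione genes 15 were higher and 4 lower (median 0.23), and without P2 1 there were 8 lower ones. Glutathione transferases rose, with Gstm2 going from 8.5, 8.41 and 8.66 to 10.70, 9.94 and 9.86 (1.64 ± 0.21), Gsta1 from 7.62, 8.27 and 7.71 to 9.23, 9.70 and 9.33 (1.56 ± 0.18) and Gstt2 from 6.94, 7.16 and 7.22 to 8.37, 8.37 and 8.42 (1.28 ± 0.10). Nqo1, a quinone reductase (1.23 ± 0.13), Gpx3, the secreted glutathione peroxidase (1.33 ± 0.20), Gclc, which limits glutathione synthesis (0.78 ± 0.10), and Nfe2l2, which encodes NRF2, the activator of many of these genes (0.90 ± 0.10), rose as well. Glrx, glutaredoxin, fell from 8.47, 8.98 and 9.22 to 7.49, 6.81 and 6.94 (-1.81 ± 0.23). Prdx3 (-0.27 ± 0.08) was not called.

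In the metal list 4 of 21 genes were higher and 1, Tfrc, was lower (median 0.01). The metallothioneins Mt1 (2.10 ± 0.13) and Mt2A rose, while the call of Ftl1, the ferritin light chain (0.49 ± 0.12), was lost without Fed 1, Fed 2, P2 1 or P2 2 and that of Aco1, the iron regulatory protein (0.38 ± 0.08), with any array but P2 1 left out. Leaving out Fed 1, Fed 2 or P2 2 gave 2 higher genes. Mt1 has a second probe set, at 2.17 ± 0.16, and near-identical copies of the gene may share the signal of both. Of 28 genes of the endoplasmic reticulum and ATF4 response 7 were higher and 3 lower (median -0.01). Ppp1r15a, which reverses the block of translation (1.04 ± 0.13), and the chaperones Dnajc3 (0.84 ± 0.11) and Dnajb9 (0.53 ± 0.10) rose, and Hspa5, the chaperone BiP (-0.44 ± 0.15), Ddit3, which encodes CHOP (-0.51 ± 0.21), and Asns, an ATF4 target (0.03 ± 0.14), were not called, although Hspa5 (adjusted p = 0.0336 without P2 2) and Ddit3 (adjusted p = 0.0490 without Fed 1) were lower in 1 such fit each. Without Fed 2 or P2 2 there were 4 higher genes, and without Fed 2 or P2 3 there was 1 lower one. Of 25 heat shock genes 2 were higher, with Hsf2, a heat shock factor, at 0.91 ± 0.11, and 2 lower, with the mitochondrial chaperonin Hspd1 at -0.68 ± 0.10. Without Fed 1, Fed 2, Fed 3, P2 1 or P2 3, there was 1 higher gene, and without Fed 1, Fed 3 or P2 3 there was 1 lower one. Of 29 interferon-induced genes Oas1k alone was higher, from 5.16, 5.58 and 5.88 to 7.89, 8.64 and 8.12 (2.68 ± 0.26), and the median was -0.11. Without P2 2, 4 of these genes were lower, and without Fed 1 it was 1. In cholesterol synthesis 3 of 18 genes were higher and 4 lower (median -0.14), with Insig1, the repressor of the pathway, at 1.01 ± 0.11 and Sqle, the squalene epoxidase, at -0.71 ± 0.13. The higher count was 1 without Fed 1, Fed 2 or P2 2, and the lower count 2 without Fed 1 or Fed 3.

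**Figure D5:**
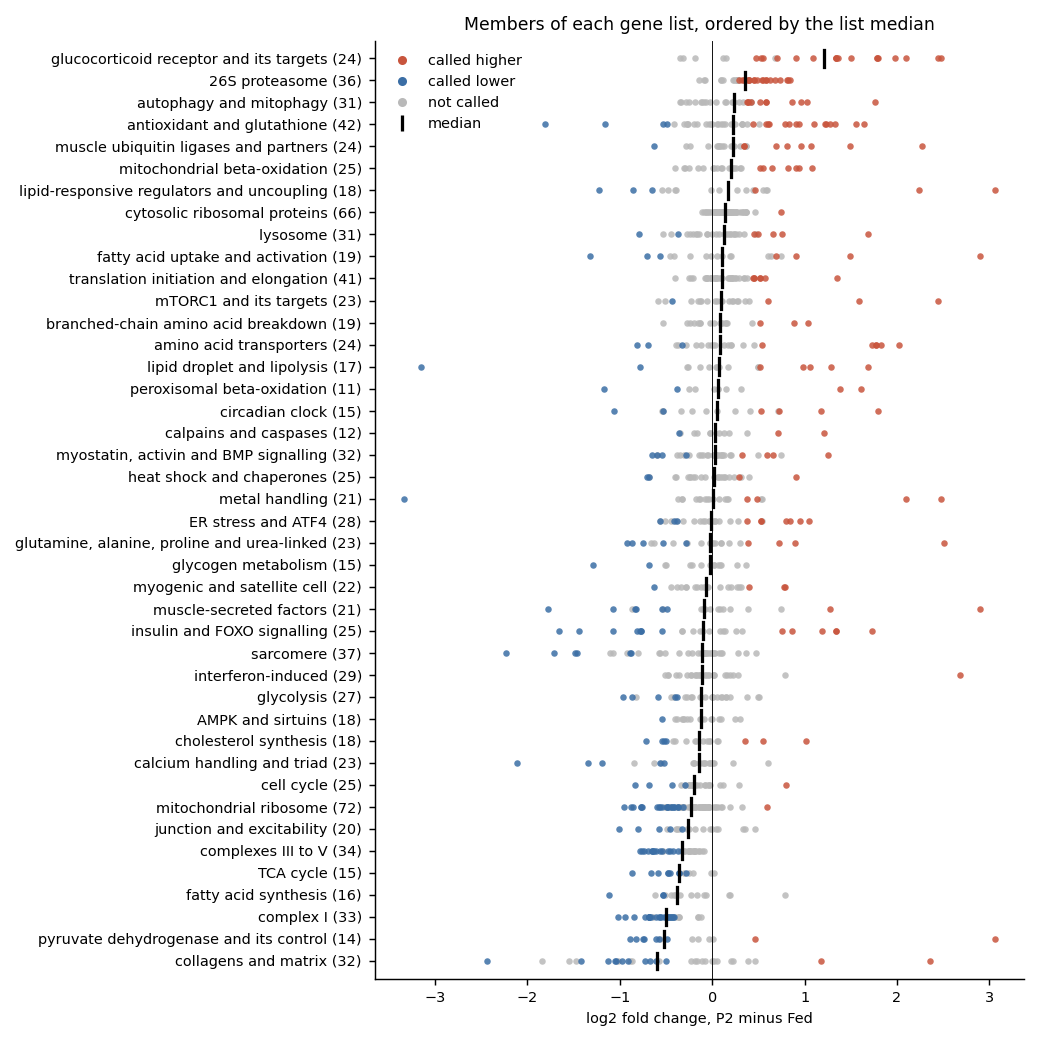
Log2 fold change of P2 minus Fed (x axis) of each measured member of the lists with at least 11 members, cell type markers aside, 1 point per gene, coloured by call, with a bar at the median and the number of members in parentheses. Lists run from glucocorticoid targets at the top (median 1.21) to collagens at the bottom (median -0.59), and most medians lie close to 0. The lists were chosen with earlier results of these data known.

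Markers of other cell types. In whole muscle, fewer cells of a type and less RNA per cell cannot be told apart. Of 10 adipocyte markers 4 were higher and none lower (median 0.62), and 2 were higher without Fed 2. Adipoq, adiponectin, rose from 5.13, 5.40 and 5.64 to 7.86, 6.63 and 6.95 (1.76 ± 0.32), Plin1 was not called (0.50 ± 0.15, adjusted p = 0.0827, or 0.0123 without P2 2), and Lep, leptin, stayed near the bottom of the scale with 4.67, 4.69 and 4.39 against 4.89, 4.69 and 4.68. The summed level of the adipocyte markers was 10.41 to 10.53 in fed rats and 11.16 to 11.31 in P2. Lipe, Cidec and Fabp4 belong both to these markers and to the lipid groups above, and the part of adipocytes in those results was not tested. Markers of blood moved the other way. Of 5 red blood cell markers 3 were lower, with the globins Hbb going from 9.38, 9.36 and 9.17 to 7.11, 7.54 and 7.04 (-2.07 ± 0.16) and Hbb-b1 from 9.25, 9.19 and 8.67 to 6.73, 7.63 and 6.76 (-2.0 ± 0.28), which are near-identical copies whose probes may share signal. Their summed level was 10.06 to 10.40 in fed rats and 8.23 to 8.79 in P2. No macrophage (0 of 14), neutrophil and mast cell (0 of 11), lymphocyte (0 of 10) or Schwann cell marker (0 of 8) was called, although 1 macrophage marker was higher without P2 1. For the vessel wall, 1 of 11 endothelial markers was higher and 2 of 10 pericyte and smooth muscle markers were lower, among them Mcam (-0.70 ± 0.11). The endothelial call, Cldn5, was lost without Fed 1, Fed 2, P2 1 or P2 2, and 1 endothelial marker was lower without P2 2. The pericyte count was 1 without Fed 1, Fed 2 or P2 3. Of 11 fibroblast markers, 2 were lower, with Col3a1 as the 1 left without Fed 1, Fed 2, Fed 3, P2 1 or P2 3, and 1 was higher, which none was without Fed 1, Fed 2, P2 2 or P2 3. Pdgfra, the marker of fibro-adipogenic cells, had 7.71, 7.82 and 8.24 against 7.34, 8.31 and 8.01 (-0.03 ± 0.29). Of 6 tendon markers, Chad, chondroadherin, rose by 1.09 ± 0.18, and the calls of Comp (0.59 ± 0.15), lost without Fed 1, Fed 2, Fed 3, P2 2 or P2 3, and Scx (-0.60 ± 0.13), lost without P2 2 or P2 3, rested on single arrays.

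Differences among rats of a group. The distance between arrays over all probe sets was 62.5 to 70.3 between fed and P2 rats, 40.3 to 42.0 among fed rats and 41.0 to 61.0 among P2 rats. The larger distances among P2 rats were those of P2 1, at 61.0 from P2 2 and 52.9 from P2 3. P2 2 and P2 3 were 41.0 apart, within the range of the fed rats. The first principal component, with 51.0% of the variance, separated the groups, and the second, with 21.6%, separated P2 1 (36.1) from P2 2 (-23.6) and P2 3 (-9.33). The SD was above 0.5 log2 units for 57 genes among fed rats and for 177 among P2 rats, of 14506. P2 1 was the P2 array farthest from the P2 median in 45.7% of genes, P2 2 in 30.2% and P2 3 in 24.1%. The genes with the largest P2 spread were led by different rats. Serpina3n, an acute phase inhibitor of proteases, had 6.0, 5.50 and 7.72 in P2 and 5.07, 5.19 and 5.27 in the fed state, so P2 3 alone was high. Cish, a feedback inhibitor of cytokine signalling that growth hormone induces, had 7.17, 8.35 and 9.29 in P2 and 8.45, 7.27 and 7.99 in fed rats. Ldhb, the heart form of lactate dehydrogenase, had 8.46, 10.08 and 8.76 in P2 against 9.80, 10.21 and 9.78, with P2 2 among the fed values. Rab40b, a small GTPase, had 8.72, 6.97 and 7.5 in P2 against 7.78, 7.93 and 7.78. Among fed rats, Fam111a, a protease, had 7.14, 4.94 and 7.20 against P2 values of 4.47, 7.83 and 5.10, which spanned a wider range. Neu2, a sialidase, had 8.11, 6.64 and 7.94 in fed rats, and its lower call in P2 (-1.26 ± 0.33, adjusted p = 0.0450) was lost without Fed 1, Fed 3, P2 1, P2 2 or P2 3.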

How the data were processed

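RNA of TIB from 3 fed and 3 P2 rats was analysed, together with 3 arrays of the later fasting phase that only add to the estimate of the spread. The authors quantified Affymetrix Rat Gene 1.0 ST arrays with GCOS and Expression Console 1.1 (sketch quantile normalization and median polish as in RMA) and deposited log2 signals of 29215 probe sets, which were used unchanged. Of these, 15310 have 1 gene symbol in the platform annotation, 323 have several and 13582 have none; 15279 matched a current rat gene. For each of 14506 genes the brightest probe set, by its average across the 9 arrays, was used. Quantile normalization assumes that most transcripts do not change, so fold changes are relative to the whole array.

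Group means were fitted with limma 3.58.1 (lmFit, eBayes) in R 4.3.3 and adjusted over all probe sets. The procedure was tested on simulated data drawn with the observed spread: for P2 versus Fed, log2 changes of 0.5, 1 and 2 were called in 29.9%, 83.6% and 98.5% of altered probe sets, and 10 of 29015 unaltered ones were called. The simulated noise was independent and had the same SD in each group, and few probe sets were altered. These rates need not hold for the real arrays. Precision is limited by 3 arrays per group. Replicate numbers do not pair the rats. The members and the gene lists were chosen with earlier results of these data known. Values are given for 15 genes per direction, those that changed most among called genes whose 2 groups did not overlap and whose higher group averaged 6 or more, for up to 6 called and 3 further genes of each list, for the 5 smallest adjusted p-values per direction and for the genes with the largest spread (8 in P2, 5 in Fed). Not all of these are printed, and Pdhb, Igf1r, Insr, Slc43a2, Aldh18a1, Col5a1, Col4a1, Bgn, Gclc, Nfe2l2, Trim55 and Trim32 were added after their values were seen. Alternatives were quantile normalization once more, array medians subtracted, a filter on a mean of 5, restriction to annotated probe sets, trended and robust moderation, weighted arrays, only the 6 arrays, a replicate block, stricter thresholds, the ANOVA and Tukey test of the methods, averages over a gene's probe sets, and each array left out. Python 3.11.15 and matplotlib 3.10.9 drew the figures.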

Additional observations from a re-analysis of the deposited data

How the results depend on the processing

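The counts of probe sets called higher and lower, 1500 and 1211, depended on the threshold and on single arrays. They were 625 and 493 at an adjusted p under 0.01, 778 and 659 with at least 1.5-fold, 381 and 279 with the methods' ANOVA and Tukey test at p under 0.001, and 410 and 303 with the Tukey p after Benjamini-Hochberg adjustment. Array weights, which gave P2 1 a weight of 0.381 and P2 3 one of 2.26, gave 2477 and 1807. With each array left out in turn, the counts ran from 843 (without Fed 2) to 2044 (without P2 1) and from 709 (without P2 3) to 1320 (without P2 1). The other alternatives moved both counts by less than 1.5 times, and a second quantile normalization gave 1336 and 1387, which turned the balance of the directions from 55.3% higher to fewer higher than lower. The median log2 fold change of all probe sets stayed between -0.00914 and 0.0186. The replicate numbers do not pair the rats, as deviations of same-numbered arrays correlated at -0.0344, -0.0378 and 0.00477, and a fit with a replicate block gave 1093 and 890. Of 326 genes with values by the rule, 234 were called, and 165 of these kept the call in 12 alternatives run per gene. None changed its direction past the threshold. Without single arrays 23 (without P2 1) to 52 (without Fed 3) of them lost the call, with a replicate block 28 and with only the 6 arrays 39. The causes were not tested.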
